A study of Mus musculus with 15 samples.

Results

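First-intron distal H3K27ac peaks are stretches of acetylated chromatin that lie in the first intron of a gene but away from RefSeq start sites. They were taken from the peak list of 1 mouse tumor library by position alone. A peak was distal when it overlapped no window of 2 kb either side of a RefSeq start site, and it belonged to a first intron when its summit, the position with the most fragments, lay in the first intron of a RefSeq NM_ transcript and in no RefSeq exon. Of 122375 peaks in the list, 95604 were distal and 21013 met the rule. These were 17.2% of all peaks (Wilson 95% interval 16.96 to 17.4%) and 22.0% of the distal ones (21.7 to 22.2%). Another 35751 distal peaks had their summit in a later intron, 33507 were intergenic, 3072 lay in exons and 2261 in introns of noncoding transcripts only.

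The tumors were fusion-positive rhabdomyosarcoma (FP-RMS), a soft tissue cancer with features of skeletal muscle, from genetically engineered mice. Both tumor models carried Cdkn2a(Flox/Flox), Pax(3P3F/P3F) and R26-tdTom, which on recombination lose Cdkn2a function, switch on the PAX3-FOXO1 fusion (P3F) and mark the cell with tdTomato. They differed in the Cre, which was Myf6-Cre in MCP tumors and Tek-Cre in TCP tumors, so Cre acted where the Myf6 locus of the muscle lineage or the endothelial Tek promoter is active. The series has 15 CUT&RUN libraries, and the list is that of MCP H3K27ac replicate 5, so there are no replicates and MCP and TCP tumors were not compared here. Per the study's methods, the tumors were digested and live tumor cells were sorted by flow cytometry before CUT&RUN. How pure the sorted cells of this library were is not given in the sources used here.

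An intron is transcribed and then spliced out, and the first one begins close to the promoter. Enhancers, which raise transcription of a gene from a distance, often lie in introns, and active enhancers carry acetylation of lysine 27 on histone H3. First introns are as a rule longer than later introns, so the number of peaks in them has to be read against the sequence they hold and against the distance to a start site.

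The sequences around 8 summits are shown to make the peaks concrete. Each is the summit with the highest fold enrichment among the genes named below for a reason: the highest fold of all (Dennd2a), most peaks (Maml3), highest density (B3gnt2), receptor tyrosine kinases (Egfr), Hippo signaling (Tead4), TGF-beta signaling (Ltbp1), myogenic regulators (Tcf12) and the loci of the model (Cdkn2a). They reach 100 bp either side of the summit on the forward strand of mm10, 5′ to 3′, and lie in introns by the RefSeq annotation of that build. Capitals mark the longest CA tandem run in Dennd2a and Maml3. In the others they mark matches, on either strand, to the E-box letters CAGCTG and CAGGTG, to the AP-1 letters TGANTCA and to the TEAD letters GGAATG.

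Dennd2a chr6:39540177-39540377: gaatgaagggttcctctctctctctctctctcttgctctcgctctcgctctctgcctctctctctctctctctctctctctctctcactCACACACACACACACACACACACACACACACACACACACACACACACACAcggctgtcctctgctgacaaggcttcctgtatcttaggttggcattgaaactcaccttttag
Maml3 chr3:52071092-52071292: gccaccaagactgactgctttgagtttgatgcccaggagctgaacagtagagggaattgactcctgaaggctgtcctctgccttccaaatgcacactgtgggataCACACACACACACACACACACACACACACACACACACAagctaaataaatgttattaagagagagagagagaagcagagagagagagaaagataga
B3gnt2 chr11:22851837-22852037: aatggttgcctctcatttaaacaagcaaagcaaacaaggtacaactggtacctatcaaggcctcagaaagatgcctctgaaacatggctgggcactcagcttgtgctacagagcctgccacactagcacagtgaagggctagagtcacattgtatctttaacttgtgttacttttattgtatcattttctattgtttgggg
Egfr chr11:16790536-16790736: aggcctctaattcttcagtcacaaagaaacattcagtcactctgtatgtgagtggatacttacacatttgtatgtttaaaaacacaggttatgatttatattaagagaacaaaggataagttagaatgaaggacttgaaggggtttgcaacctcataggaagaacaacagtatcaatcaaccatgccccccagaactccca
Tead4 chr6:128286003-128286203: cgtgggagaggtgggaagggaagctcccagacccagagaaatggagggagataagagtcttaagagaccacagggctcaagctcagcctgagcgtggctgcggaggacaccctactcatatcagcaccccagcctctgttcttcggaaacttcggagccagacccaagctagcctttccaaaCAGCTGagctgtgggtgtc
Ltbp1 chr17:75199832-75200032: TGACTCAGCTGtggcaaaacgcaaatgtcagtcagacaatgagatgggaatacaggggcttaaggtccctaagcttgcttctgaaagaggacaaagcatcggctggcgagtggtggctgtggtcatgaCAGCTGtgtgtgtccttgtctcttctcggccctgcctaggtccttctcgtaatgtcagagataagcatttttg
Tcf12 chr9:71888669-71888869: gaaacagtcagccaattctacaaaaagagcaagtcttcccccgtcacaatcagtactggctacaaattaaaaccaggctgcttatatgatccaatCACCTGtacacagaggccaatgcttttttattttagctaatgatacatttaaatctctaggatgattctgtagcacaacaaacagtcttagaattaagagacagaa
Cdkn2a chr4:89290224-89290424: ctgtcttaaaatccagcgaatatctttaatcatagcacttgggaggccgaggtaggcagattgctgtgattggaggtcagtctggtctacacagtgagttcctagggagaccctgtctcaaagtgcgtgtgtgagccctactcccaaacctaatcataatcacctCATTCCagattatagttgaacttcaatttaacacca

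The Dennd2a and Maml3 windows held uninterrupted CA runs of 25 and 19 units. The Egfr and B3gnt2 windows held none of these letters, the Tcf12 window 1 E-box, and the Ltbp1 window 2 copies of CAGCTG, one of which overlaps an AP-1 match. The Tead4 window held 1 copy of CAGCTG. In Cdkn2a the window held 1 TEAD match.

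The first question was whether first introns hold more distal peaks than their length gives. First introns held more distal peaks per base than later introns, and both held more than intergenic sequence. Peaks were counted as called, and close ones were not merged. Distal first-intron sequence made up 231 Mb, or 9.09% of all distal sequence and 26.8% of the distal sequence in introns of NM_ transcripts. It held 37.0% of the distal peaks in those introns (36.6 to 37.4%). Density was 90.9 peaks per Mb in first introns (exact Poisson 95% interval 89.7 to 92.2) and 56.5 per Mb in later introns (55.95 to 57.1), a ratio of 1.61 (exact interval 1.58 to 1.64). Intergenic sequence held 21.4 peaks per Mb, so first introns were 4.25 times as dense. That factor is not matched on distance to a start site. At 2 to 5 kb from a start site first introns had 127 per Mb and intergenic sequence 39.0. Beyond 100 kb the values were 22.9 and 10.7. Repeats made up 42.7% of intergenic and 28.5% of first-intron sequence, which was not matched either. All of these intervals cover counting error only, since neighboring peaks are not independent and there is 1 library, and the sets of peaks were not tested against each other.

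The ratio of first to later introns was above 1 on each of the 20 chromosomes that held first-intron peaks, and on 19 of them its interval lay above 1. It was lowest on chromosome 13, with 61.9 and 57.7 peaks per Mb (1.07, 0.969 to 1.18), and highest on chromosome 2, with 111 and 52.7 per Mb (2.11, 1.99 to 2.23). Chromosome 11 had the densest first introns, with 142 peaks per Mb, and chromosome X the sparsest, with 25.3 per Mb. Chromosome X had a ratio of 2.05 (1.74 to 2.41).

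Because first introns start at promoters, density was next compared at equal distance from the nearest start site. First-intron density was highest nearest the start sites and lower farther out, whereas later introns stayed between 59.2 and 70.1 peaks per Mb up to 100 kb. At 2 to 5 kb there were 127 peaks per Mb in first introns (123 to 131) and 59.2 in later ones, a ratio of 2.15 (2.03 to 2.27). At 20 to 50 kb the values were 94.2 and 70.1 (ratio 1.34, 1.30 to 1.39). Beyond 50 kb the order was the other way round, with 57.9 and 64.04 peaks per Mb at 50 to 100 kb (0.903, 0.858 to 0.951) and 22.9 and 30.9 farther than 100 kb (0.741, 0.681 to 0.805). With the later-intron density of each distance class applied to the first-intron sequence in it, the ratio was 1.47 (1.45 to 1.49).

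That order depended on which genes the introns belonged to. When the genes were split by whether a peak of the same library overlapped a 2 kb window of their own start sites, a split made after seeing the data, genes with such a promoter peak had denser first than later introns at every distance. Their values were 223 and 99.6 peaks per Mb at 2 to 5 kb, 186 and 96.5 at 5 to 10 kb and 188 and 107 at 10 to 20 kb. Farther out they were 191 and 110 at 20 to 50 kb, 154 and 114 at 50 to 100 kb (ratio 1.35, 1.28 to 1.43) and 103 and 79.4 beyond 100 kb (1.30, 1.17 to 1.44). Genes without a promoter peak had between 10.2 and 21.3 peaks per Mb of first intron at each distance. Their first introns were the sparser at 20 kb and farther, with 20.5 against 23.6 per Mb at 20 to 50 kb (0.865, 0.790 to 0.947), and the interval of the ratio held 1 at each nearer distance.

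**Figure D1:**
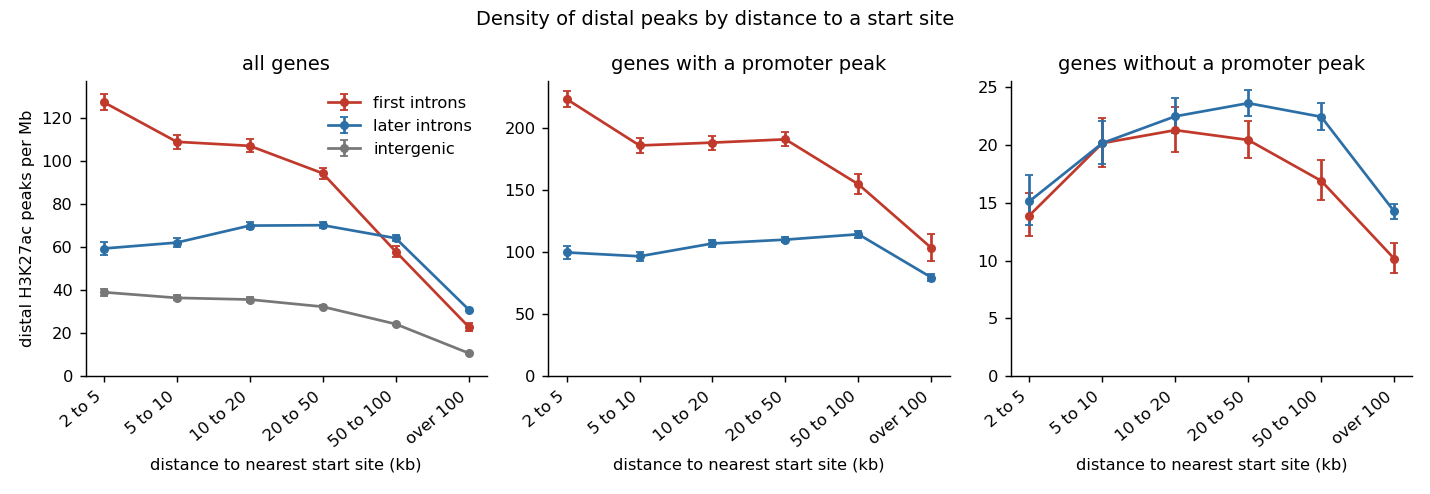
Distal H3K27ac peaks per Mb (vertical axis, each panel with its own scale from 0) against distance to the nearest RefSeq start site in kb, for first introns, later introns and, in the left panel, intergenic sequence. Points are densities in 1 library and bars are exact Poisson 95% intervals; in genes with a promoter peak the first-intron line stays above the later-intron line, from 223 against 99.6 to 103 against 79.4.

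In all, genes with a promoter peak held 18722 of the first-intron distal peaks (89.1%) on 42.9% of the first-intron sequence. Their first introns had 189 peaks per Mb and their later introns 103 (ratio 1.83, 1.79 to 1.86). The other genes held 2291 peaks, at 17.4 per Mb in first and 19.2 per Mb in later introns (0.907, 0.865 to 0.952). Promoter and intron peaks come from the same tumor library and the same background, and the part of local copy number or of background in this split was not tested.

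Intron length was the other property to match. Over all genes, first introns were denser than later introns in every length class, and in both kinds density was lowest in introns over 100 kb. The class of 20 to 50 kb held more of the first-intron peaks than any other, 7434, at 134 per Mb against 65.7 in later introns of that length (ratio 2.04, 1.97 to 2.11). Introns of 2 to 5 kb had 101 and 61.1 peaks per Mb (1.65, 1.51 to 1.81), and those over 100 kb had 40.1 and 27.9 (1.44, 1.37 to 1.51). Matched on length in the same way, the ratio over all introns was 1.77 (1.74 to 1.79). In genes with a promoter peak the ratio was above 1 in every length class. In genes without one it was below 1 at 2 to 5 kb (0.452, 0.294 to 0.667), 5 to 10 kb (0.784, 0.639 to 0.953) and over 100 kb (0.908, 0.826 to 0.998), above 1 at 20 to 50 kb (1.14, 1.03 to 1.25) and 50 to 100 kb (1.29, 1.16 to 1.44), and its interval held 1 at 10 to 20 kb. First introns under 2 kb held 0 peaks in these genes.

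Gene by gene, 10112 genes had at least 1 kb of distal first-intron sequence, and 3138 of them (31.0%, 30.1 to 31.9%) had at least 1 first-intron distal peak. This is the background share for every gene list below. The share was 47.6% in the 5421 genes with a promoter peak (46.3 to 48.9%) and 11.9% in the 4691 genes without one. It also went with length. Of genes with a promoter peak, 14.4% had a first-intron peak when the intron held 1 to 2 kb of distal sequence, 76.0% at 20 to 50 kb and 96.7% over 100 kb. Without a promoter peak the shares were 0.467%, 22.3% and 31.9%.

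**Figure D2:**
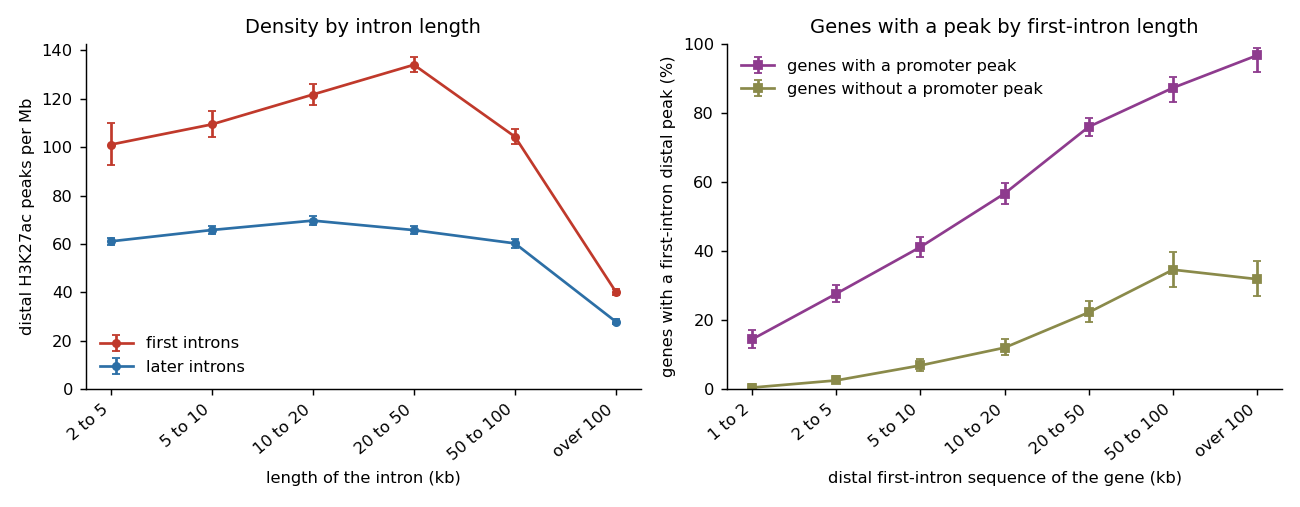
Left, distal H3K27ac peaks per Mb by length of the intron in kb, for first and later introns, with exact Poisson 95% intervals. Right, percent of genes with at least 1 first-intron distal peak by kb of distal first-intron sequence, for genes with and without a promoter peak, with Wilson 95% intervals; the 2 lines reach 96.7% and 31.9% over 100 kb.

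Exceptions existed on both sides. Among the 437 genes with a promoter peak and at least 50 kb of distal first-intron sequence, 44 (10.1%) had no first-intron peak, and the longest of these belonged to Mmp16, a membrane-bound matrix metalloproteinase (132 kb), and Gphn, the scaffold protein gephyrin (115 kb). Conversely, 55 genes without a promoter peak had 10 or more. The most were in Smad3, a transcription factor activated by TGF-beta receptors, with 44 peaks in 88.1 kb and none in its later introns. Nmnat2, an enzyme of NAD synthesis, followed with 37 in 117 kb. Mfhas1 and Nfia, a nuclear factor I protein, had 34 each. Apart from Smad3, these genes were named after their values were seen.

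Within single genes, the first intron was more often the denser one by a narrow margin. This is a share of genes and cannot be set against the density ratios above. First and later introns of a gene were not matched on length here. In 2405 genes that had at least 10 kb of distal sequence in each kind of intron and at least 1 peak, the first intron was the denser one in 1297 (53.9%, 51.9 to 55.9%). In the 1684 of these with a promoter peak it was denser in 1028 (61.0%, 58.7 to 63.3%). Peaks lay only in the first intron in 381 genes, only in later introns in 620 and in both in 1404, where the median ratio of densities was 1.52.

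**Figure D3:**
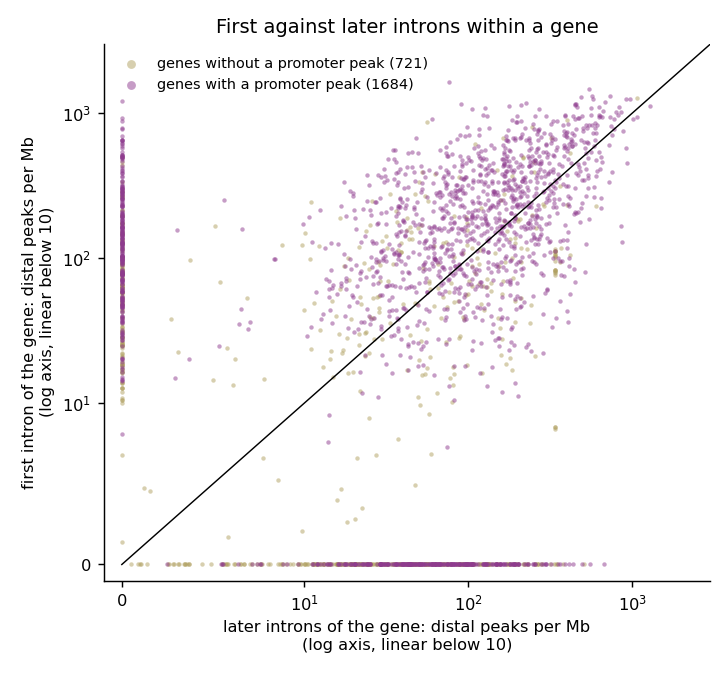
First-intron density against later-intron density in each of 2405 genes, in distal peaks per Mb on log axes that are linear below 10, with the line of equal density. Each point is a gene, colored by whether it has a promoter peak; 1297 genes lie above the line, and the points along the axes are the 381 and 620 genes with peaks in one kind of intron only.

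The peaks were spread over many genes but unevenly. Counting also genes with less than 1 kb, 3202 genes hosted at least 1. Among the 3138 genes above, the median host had 3 peaks (quartiles 2 and 8, maximum 118), and 741 genes (23.6%) had 1. The 240 genes with 20 or more held 37.3% of all first-intron distal peaks. Neighboring peaks lay close together, with a median of 837 bp between summits and 74.2% of the gaps under 5 kb.

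Most peaks were in the first intron of the gene whose start site was nearest. This held for 19273 (91.7%), against 60.5% of later-intron peaks and the genes that host them. A first intron begins beside a start site of its own gene and a later intron does not, so position alone favors such a difference. The share of intron sequence nearest to its host was not computed. The median distance to a start site was 13.3 kb (quartiles 5.79 and 27.98 kb, maximum 399 kb), and 35.7 kb for later introns. Only 108 peaks lay in first introns of more than 1 gene. A further 3407 (16.2%) lay in sequence that is also a later intron of another transcript, and 2731 (13.0%) overlapped a 2 kb window around a start site that GENCODE lists and RefSeq does not.

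Along long first introns density varied little and was highest toward the 3′ end. In 2787 first introns of at least 20 kb, cut into 10 equal parts from the 5′ to the 3′ end, density was between 78.0 and 83.2 peaks per Mb in the first 8 parts and was 87.5 in the 9th and 90.0 in the 10th (85.5 to 94.7). The part next to the promoter, with its promoter window taken out, had 78.9 (74.0 to 84.0). The 5620 later introns of that length had between 44.3 and 54.3 per Mb, highest in the 4th part.

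The 10 genes with the most peaks had 68 to 118 each, and all 10 had a promoter peak. Ank3, whose product ankyrin-G anchors membrane proteins to the cytoskeleton, had 118 in 408 kb of distal first-intron sequence, or 289 per Mb against 85.9 in its later introns. Phlpp1, a phosphatase that dephosphorylates AKT, had 110 in 107 kb, at 1023 per Mb, and its later introns were nearly as dense with 794. Maml3, a coactivator of Notch signaling, had 109 in 246 kb (443 per Mb, later introns 91.3).

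Sorbs2, an adaptor protein of the actin cytoskeleton and the sarcomeric Z-disc, had 107 in 217 kb. Egfr, the receptor for epidermal growth factor, had 68 in 105 kb (650 per Mb, later introns 225). Cdh6, a cadherin, had 77 in 79.7 kb, and P3h2, which hydroxylates collagen, 71 in 107 kb. In each of these the first intron was denser than the later ones.

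Cmss1 (98 peaks) and Filip1l (70) lie over each other and shared 70 peaks. Only 4 of the Cmss1 peaks had a Cmss1 start site nearest, against 70 of 70 for Filip1l, so the count of Cmss1 is in large part that of its neighbor. In this interval 2 peak numbers are absent from the list, and what they held is not known here. Kcnq5, a voltage-gated potassium channel, had 70 in 366 kb.

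The peaks of these introns formed runs of modest peaks with few strong ones. In Ank3 they began 2.16 kb from the most upstream start site and ended at 412 kb, with a median gap of 0.649 kb and a longest gap of 45.8 kb. Fold enrichment over background ran from 3.03 to 13.9 with a median of 5.35. In Phlpp1 the longest gap was 8.48 kb, and the peaks covered the intron from 5.01 to 109 kb. Those of Maml3 included its highest fold, 18.6, between 3.15 and 246 kb, with a longest gap of 31.7 kb.

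**Figure D4:**
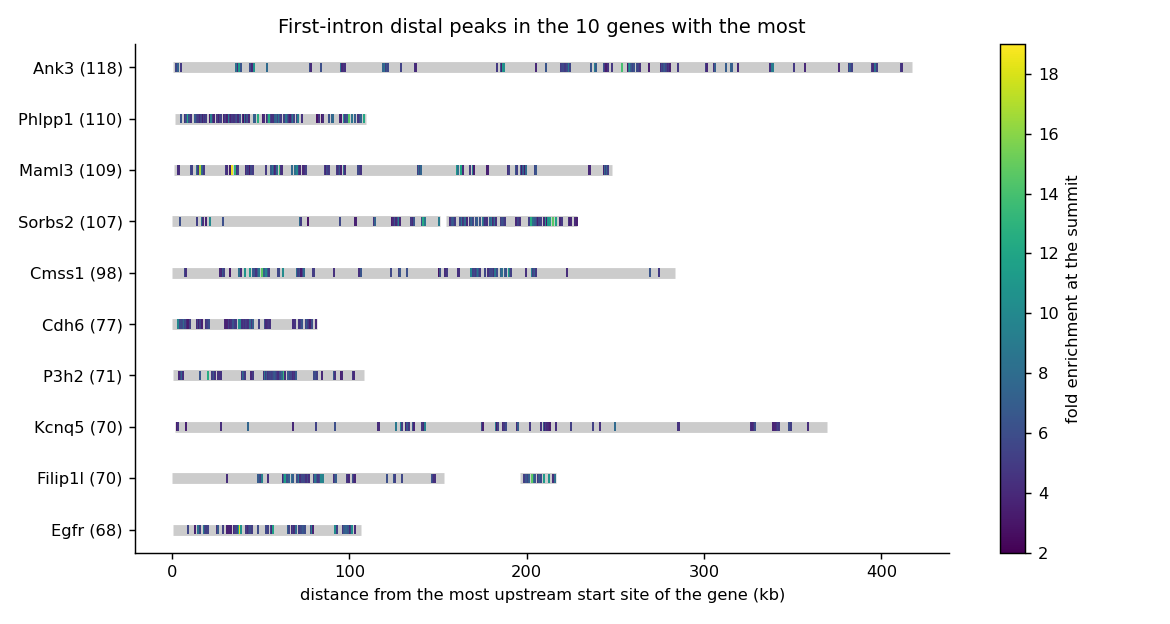
First-intron distal peaks (ticks) of the 10 genes with the most, against distance in kb from the most upstream start site of the gene; gray bars are the first introns of its transcripts and the color is fold enrichment at the summit. Phlpp1 is filled from 5.01 to 109 kb with no gap over 8.48 kb, whereas Ank3 and Kcnq5 have clusters separated by up to 45.8 and 40.4 kb.

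Relative to length, other genes led. Among first introns with at least 20 kb of distal sequence, that of Cxxc5, a zinc finger protein, had 37 peaks in 22.1 kb and that of Hspg2, the basement membrane proteoglycan perlecan, 50 in 30.3 kb. Nfe2l2, the transcription factor NRF2 of the oxidative stress response, had 31 in 21.9 kb. Cd44, the receptor for hyaluronan, had 45 in 34.2 kb, and Myh9, a heavy chain of nonmuscle myosin, 35 in 26.9 kb. The other 5 were Mtss1, Niban2, B3gnt2, Sh3pxd2b and Capzb, with 24 to 49 peaks. All 10 had a promoter peak. In Hspg2 the later introns held 4 peaks, at 76.3 per Mb against 1653 in the first.

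The genes with the most distal first-intron sequence held few peaks. The sequence is summed over the alternative first introns of a gene, so 1 intron can be shorter, as in Lingo2 (633 kb in all, longest first intron 281 kb). The 10 genes with the most, 617 to 1154 kb, all lacked a promoter peak, and most of them act in neurons. Asic2, an acid-sensing ion channel, had 17 peaks in 976 kb. The heparan sulfate sulfotransferase gene Hs6st3 and Lingo2 had 10 each, Robo2 and Cadm2 5 each, Lsamp 2 in 1154 kb and Sgcz 1. Kcnip4, Ntm and Cntnap2 had none, in 1028, 777 and 617 kb.

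Single peaks were mostly narrow and rested on few fragments. The median first-intron distal peak was 165 bp wide (quartiles 102 and 325 bp) and had a fold enrichment of 5.22 (4.36 and 6.23). Fold is what the caller found at the summit plus 1, divided by the background it set there plus 1. In later introns the medians were 155 bp and 4.99. The number of fragments over the summit, recovered from the list, was between 7 and 66 with a median of 12 and quartiles of 10 and 16. Counting error alone is 28.9% at that median, and 86.9% of the summits had fewer than 20 fragments, so the fold of a single peak is imprecise and a small difference between peaks was not detectable at this depth. At least 1 kb was covered by 1108 of the peaks (5.27%), against 4.73% in later introns.

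The strongest peak was that of Dennd2a, which encodes an exchange factor for RAB GTPases, at chr6:39537911-39540546, with a fold of 28.9 and 66 fragments. Its nearest start site, at 12.7 kb, was that of 8030453O22Rik and not of Dennd2a. Next were Fndc3b at chr3:27657030-27659129 (24.1, 60 fragments), Eps8, a regulator of actin and of EGF receptor signaling, at chr6:137558843-137561734 (22.5, 58 fragments), and Pam, an enzyme that amidates peptides, at chr1:98083644-98085626 (22.5, 55 fragments). Mical3, Lnpep, Cd274, Pkp2, Ppp1r42 and Prrx1 completed the top 10 with folds of 19.9 to 22.4. Cd274, the immune checkpoint ligand PD-L1, had this peak and 1 other in 3.02 kb of distal first intron, and Prrx1 is a transcription factor of mesenchyme. Dennd2a, Eps8 and Mical3 lie on chromosome 6, and Pam, Ppp1r42 and Prrx1 on chromosome 1, both dense in peaks. The rest of the 10 lie on chromosomes 3, 16, 17 and 19. The part of local copy number in these folds was not tested.

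The widest peaks were others. The widest first-intron distal peak lay in the first intron of Vat1l at chr8:114212881-114220085 (7205 bp, 35 fragments, fold 5.33). It was followed by those in Lrig1, an inhibitor of receptor tyrosine kinases (6817 bp, fold 4.11), and in the kinase gene Braf at chr6:39712035-39717881 (5847 bp, fold 7.98, 44 fragments). These 3 were named after their values were seen.

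Gene lists of the muscle lineage, of signaling and of other cell types were then examined. The lists were chosen with earlier results known, and their shares were set beside the share expected from all genes with first introns of the same lengths. In 9 of the 12 lists the share was above the length-matched one, but every interval held that share, so no list is called different from other genes. The matching did not cover promoter peaks. Among eligible genes these were in 16 of 16 chromatin regulators, 10 of 11 PI3K-AKT genes and 1 of 19 synaptic genes. Whether a list lies above or below genes matched on both length and promoter peak was not tested.

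Many regulators that define the muscle lineage have no distal first-intron sequence. Myod1, Myog, Myf5 and Myf6, the myogenic basic helix-loop-helix factors, have short first introns that lie wholly within 2 kb of a start site. Of the 9 eligible myogenic regulators 5 had a first-intron peak (55.6%, 26.7 to 81.1%, length-matched 40.4%). Mef2d, a MADS-box partner of the myogenic factors, had 8 in 11.3 kb and 1 in its later introns. Tcf12, an E protein that pairs with them, had 5 in 8.81 kb and 39 in its later introns. Mef2a had 4 in 20.9 kb, Eya2 3 in 59.8 kb and 23 in later introns, and Six4 1. Mef2c, Eya4, Dach1 and Eya1 had none, in 3.72 to 149 kb.

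Among genes of the sarcomere and muscle cytoskeleton, 7 of 15 had a first-intron peak (46.7%, length-matched 39.2%). Besides Sorbs2, these included Pdlim5 (16 in 37.0 kb), Palld, which encodes palladin (13 in 99.1 kb), Synpo2 (10 in 113 kb), the tropomyosin gene Tpm1 (7 in 5.74 kb) and Ank2 (1 in 384 kb). None were found in Actn2 (27.8 kb), Xirp2 (28.7 kb), Ldb3 (7.28 kb), Neb (1.68 kb) and Dmd, which encodes dystrophin (189 kb). None of these 5 had a promoter peak.

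In the receptor tyrosine kinase and RAS pathway, 11 of 18 genes had a first-intron peak (61.1%, 38.6 to 79.7%, length-matched 42.9%). Among the receptors, Fgfr1 had 15 in 11.5 kb, at 1305 per Mb, and 20 in its later introns. Igf1r, the receptor for insulin-like growth factors, had 13 in 49.6 kb, Met 5 in 21.8 kb and Insr 2 in 18.7 kb. Kit (30.0 kb), Alk (222 kb), Erbb4 (366 kb), Pdgfra (4.06 kb), Pdgfrb (13.0 kb) and Fgfr2 (2.74 kb) had none.

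Downstream of the receptors, the kinase gene Braf had 10 in 35.1 kb. Spred2 and Spred1, which inhibit RAS activation of RAF, had 31 in 71.7 kb and 16 in 29.9 kb, and Sos1, which activates RAS, 1 in 18.4 kb.

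In the PI3K-AKT list, 5 of 11 genes had a first-intron peak (45.5%, length-matched 38.3%). Phlpp1 held 110 of the 143 peaks of the list, which left few for the rest. Pik3ca, the catalytic subunit of PI3 kinase, had 20 in 37.1 kb, Rptor, a subunit of the mTORC1 complex, 7 in 52.8 kb and Akt2 1 in 6.24 kb.

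In the Hippo pathway, whose coactivators YAP and TAZ bind DNA through TEAD factors, 6 of 10 genes had a first-intron peak (interval 31.3 to 83.2%, length-matched 39.9%). Tead4 had 26 in 27.7 kb, at 939 per Mb, and Tead1 25 in 78.0 kb. Vgll4, which competes with YAP for TEAD, had 31 in 38.2 kb. The angiomotin Amotl1 had 4, the kinase Lats2 3 and Vgll3 3. The first introns of Yap1 and Wwtr1 had under 1 kb of distal sequence.

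The TGF-beta and BMP list had the largest share among the lists with more than 4 eligible genes, 12 of 17 (70.6%, 46.9 to 86.7%, length-matched 48.7%). Smad3 held 44 of its 120 peaks. Bmpr1b, a BMP receptor, had 27 in 279 kb, Ltbp1, which holds latent TGF-beta in the matrix, 10 in 44.4 kb, and Tgfbr2 9 in 41.6 kb. Acvr1 and Smad4 had 7 each. Tgfbr1, Acvr2a, Acvr2b, Smad5 and Smad6 had none. All 16 eligible chromatin regulators had a promoter peak and 10 had a first-intron peak (62.5%, length-matched 45.1%), with Chd7, a nucleosome remodeler, at 12 in 72.2 kb and Kmt2a, a histone methyltransferase, at 6 in 26.3 kb.

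The synaptic, immune and hepatocyte lists were the 3 with a share below the length-matched one. Of synaptic and neuronal genes 6 of 19 had a first-intron peak (31.6%, 15.4 to 54.0%, length-matched 49.8%), and the list held 51 peaks in 6946 kb, or 7.34 per Mb. Dlg2, a scaffold protein of synapses, had 23 of them, Grm7 6 and Nrxn3 4. Of immune genes 1 of 6 had a peak (Spi1, with 1) and of hepatocyte genes 0 of 5 (upper limit 43.4%). None of these 11 genes had a promoter peak.

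In the endothelial list 5 of 12 genes had a first-intron peak (41.7%, 19.3 to 68.0%, length-matched 33.8%). Ets1, a transcription factor also used outside endothelium, had 32 of the 51 peaks, in 41.8 kb. Tek, the angiopoietin receptor, had 11 in 39.5 kb, Erg 4 in 103 kb, and Cd34 and Cdh5 2 each. Of the 12 genes 2 had a promoter peak, Ets1 and Cd34. Flt1, Emcn and Fli1, with 23.6 to 62.7 kb, had no first-intron peak. Kdr, Tie1, Esam and Sox17, with 1.16 to 1.96 kb, had none either. The library was made from sorted live tumor cells of the Myf6-Cre model, and the part of any endothelial cells that passed the sort was not tested.

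**Figure D5:**
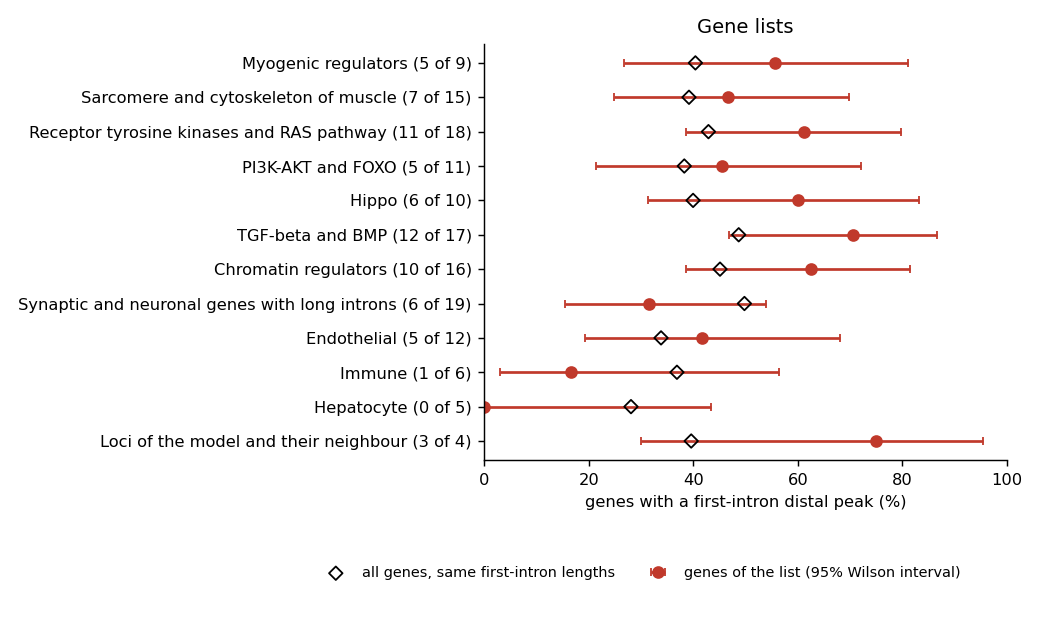
Percent of the genes of each list that had at least 1 first-intron distal peak (filled circles, Wilson 95% intervals, with the counts at the left), beside the percent in all genes with first introns of the same lengths (open diamonds). All 12 intervals hold their diamond; TGF-beta and BMP genes stood at 70.6% against 48.7% and synaptic genes at 31.6% against 49.8%.

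The loci of the model differed widely. Cdkn2a, which encodes the tumor suppressors p16 and p19ARF and is floxed in these mice, had 15 peaks in 11.6 kb of distal first-intron sequence (1290 per Mb), with folds from 3.28 to 9.96. Its neighbor Cdkn2b had 1 in 1.72 kb. Which part of Cdkn2a the allele loses is not given in the labels, and whether the Cdkn2a fragments came from recombined cells was not tested. Foxo1, whose product gives the C-terminal part of the fusion, had no first-intron peak in 74.7 kb although its promoter had one. The first introns of Pax3 and Myf6 had no distal sequence, and Pax3 had 31 peaks in its later introns, at 342 per Mb.

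The sequence under the peaks was compared with that under later-intron peaks and with windows 1 kb to either side. GC content around first-intron summits was 0.581 points above that around later-intron summits (0.461 to 0.700), a small part of the spread among peaks. Mean GC content was 45.1% within 100 bp of the summit (SD 7.02 across 21013 peaks), 44.5% around later-intron summits and 44.1% in 24002 flanking windows of first introns without a peak. It was 42.5% in first-intron and 42.2% in later-intron sequence as a whole, so the backgrounds differed in the same direction as the summits. Of the summits 21.2% lay in repeat sequence, against 20.3% in later introns, 27.8% in the flanks and 28.5% of all first-intron sequence.

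Letters that bind known factors were searched on both strands. TGANTCA, bound by AP-1, was in 8.12% of the windows (7.76 to 8.50%) and 5.604% of the flanks, and in 8.78% of later-intron and 9.54% of intergenic windows. CAGCTG, an E-box bound by myogenic factors, was in 10.4% (9.98 to 10.8%), 8.67% of the flanks and 10.1% of later introns. The other E-box, CAGGTG, went the other way against the flanks, with 13.3% and 14.1%, and was in 12.02% of later-intron windows. GGAATG, bound by TEAD factors, was in 11.1% of the windows and 10.1% of the flanks, and CCGGAAG, bound by ETS factors, in 0.957% and 0.537%.

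The other 7 letter strings gave the following shares. TGTTTAC (forkhead) was in 3.27% of the windows and 2.92% of the flanks, AGATAA (sites of GATA factors) in 11.2% and 11.4%, TGTGGTT (RUNX) in 5.81% and 5.57%, and GGGCGGG (SP factors) in 1.32% and 1.33%. TTGGCA (nuclear factor I) was in 10.6% (10.19 to 11.03%) of the windows and 9.43% of the flanks (9.07 to 9.81%), AACAAAG (SOX and TCF) in 5.67% and 5.22%, and ATTTGCAT (POU) in 0.985% and 1.096%. These letters are shorter than the sites the factors prefer, and a match is not evidence of binding.

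The CA runs seen in the strongest peaks were counted too, a search chosen after the sequences were seen. At least 10 CA units in a row, on either strand, were in 4.12% of the first-intron windows (3.86 to 4.39%), 3.77% of later-intron windows, 4.09% of intergenic windows and 2.22% of the flanks. With the first-intron peaks cut into 4 classes at the quartiles of −log10 q, the share from the weakest to the strongest class was 3.06, 3.51, 4.17 and 5.44% (4.88 to 6.06% in the strongest), and it was 3 of the 10 peaks with the highest fold. How reads of such repeats were mapped could bear on these folds and was not tested.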

How the data were processed

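H3K27ac was measured by CUT&RUN in mouse FP-RMS tumors, and the peak list of MCP H3K27ac replicate 5 was used. It is the list whose peak names carry the label of that library. The other libraries were not used here. Per the study's methods, the authors aligned the reads to mm10 with bowtie, removed those in problem regions and in an amplicon beside Col19a1, and called peaks against IgG. The methods name an early MACS release, while the submitters' processing notes name MACS2, BWA and SAMtools, so it is not known here whether the p threshold of the methods applied to this list, and the largest q in the list was 0.0471. The deposited score was not used further. The deposited fold enrichment is the ratio of pileup to local background at the summit, after the same small value is added to both, from the authors' caller. The deposited −log10 p and −log10 q are the caller's own values for each peak. The deposited summit position is an offset from the start of the peak. Peak numbers absent from the list (584) were given no value, and they touched the first introns of 274 genes that held 452 of the peaks.

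Introns came from curated RefSeq transcripts on GRCm38 (31601 start sites), and bases were classed as promoter, exon, first intron, later intron or intergenic, in that order, with unsequenced bases left out. An intron that is first in any NM_ transcript counted as first. Densities were given with exact Poisson intervals, ratios with exact conditional intervals and shares with Wilson intervals (95%), using Python 3.11.15, numpy 2.4.6, pandas 2.3.3 and scipy 1.17.1. There is 1 library and no test between peak sets. Depth is not stated in the list. Fragments over a summit were recovered as the whole number that best solves the fold and p of the caller. The limit was 0.01 on the log10 scale, wider for the peaks of smallest p, and 2 peaks had no number within it. These fragment numbers are inferences, and counting intervals do not cover duplicate fragments. Named genes were the 10 with the most peaks, the 10 densest with at least 20 kb, the 10 with the most distal first-intron sequence, the 10 peaks with the highest fold, up to 4 genes per list and the loci of the model. Other genes of these lists are named where they help to account for the list, and some are not reported here. The peaks, the lists and the rule for names were chosen with earlier results of these data known. The density ratio and its interval, the matched ratio, Wilson intervals, base classes, counts per gene and the recovery of fragments were tested on simulated data. The other steps were not. Alternatives were 7 settings listed at the start and 2 chosen after seeing the data.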

Additional observations from a re-analysis of the deposited data

How the results depend on the processing

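No paired analysis was possible because there is 1 library and the results come from no test. Of 108 values under the alternatives, 61 stayed within the interval of the value reported or, for the numbers of peaks and of lists, within 1.5 times it, and 47 did not. None turned to the opposite direction, but 1 difference went to 0. The causes were not tested beyond what each setting removes by construction.

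Peaks with −log10 q of at least 5 numbered 9687 in first introns. There the share of distal intron peaks was 38.7%, the density ratio of first over later introns 1.73, the ratios at matched distance and matched length 1.599 and 1.82, and the difference in median fold 0. First-intron peaks were then in 22.8% of genes, with 26.7 points between genes with and without a promoter peak. In the strongest 25% of peaks, the same values were 4878, 39.3%, 1.77, 1.66, 1.83, 0.065 (from 0.23), 16.3% and 19.5 points, and the difference in median width was 3 bp (from 10 bp). There the intervals of both differences held 0 (-0.078 to 0.139 for fold and -27 to 29 bp for width).

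With a promoter window of 1 kb the share was 40.4%, the 3 ratios 1.75, 1.53 and 1.91, the share of genes denser in the first intron 57.2%, the share of genes with a peak 34.3% and the difference by promoter peak 42.2 points (from 35.7). With the whole peak inside the intron the share was 37.9%, the ratio 1.67, at matched distance 1.55, and the fold difference 0.30. With 1 transcript per gene the share was 32.5%, the ratios 1.56, 1.41 and 1.68, and the share of genes 30.1%. Without introns that are first in one transcript and later in another, the shares were 33.0% of peaks and 29.9% of genes.

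Without chromosomes 1, 6, 11 and 15, where peaks are dense, the share was 37.995%, the matched ratios 1.53 and 1.74, the fold difference 0.093, the share of genes 29.0% and the difference by promoter peak 33.3 points. With GENCODE start sites added, the share was 37.98% and the ratio at matched distance 1.51. In genes with a promoter peak only, the ratios were 1.83, 1.82 and 1.67, and 61.0% of genes were denser in the first intron. These last 2 settings were chosen after seeing the data.

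The depth, with a median of 12 fragments at a summit, limits single peaks, and 1 library gives no spread between tumors.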

Other observations

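The strength of the first-intron peaks went with few of the properties measured. They were cut into 4 classes at the quartiles of −log10 q. From the weakest to the strongest class, median width was 115, 133, 163 and 455 bp and mean GC content 44.2, 44.7, 45.3 and 45.9%, while in later introns GC content went from 43.6 to 45.3%. The median distance to a start site was 12.99, 13.4, 12.9 and 14.1 kb, and between 88.6 and 89.7% of each class lay in genes with a promoter peak. TGANTCA was in 8.37, 8.18, 8.43 and 7.52% of the windows and CAGCTG in 10.1, 10.3, 10.0 and 11.1%. The classes were made on the same list, so these values are a description.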
